A study of Mus musculus with 16 samples.

Results

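Y RNAs are short noncoding RNAs whose 5′ and 3′ ends pair into a stem and whose middle forms loops. They bind the protein Ro60, which surveys misfolded noncoding RNA, and they take part in the initiation of DNA replication in vertebrates. Short fragments cut from their ends are found in many tissues and body fluids, and sperm of mice are known to carry 5′ fragments of Y RNA among other small RNAs. The mouse has 2 Y RNA genes, Rny1 and Rny3. Both lie on chromosome 6 and are annotated as Y RNA genes by RefSeq, Rny1 at chr6:47788070-47788180 and Rny3 at chr6:47781624-47781724 in build GRCm38.

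The 5′ fragments of both RNAs were read in 8 small RNA libraries of mature sperm from the cauda epididymis of male mice of the C57BL/6NCrl background. Sperm came from Dnmt2-/- mice on a high-fat diet (HFD, D12492), Dnmt2-/- mice on a normal diet (ND, Diet 1415), Dnmt2+/+ mice on HFD and Dnmt2+/+ mice on ND, with 2 libraries in each of the 4 groups. Dnmt2 (Trdmt1) encodes a tRNA cytosine methyltransferase. The labels' protocols give the knockout as the B6;129-Dnmt2tm1Bes/J allele, backcrossed for more than 5 generations, and the age of the bought mice as 6 weeks. They give neither the length of the diet nor the number of animals in a library. Dnmt2 mRNA is not measured by small RNA reads, so the knockout itself was not checked here. Nor do they say that replicates were separate animals, so a p-value here speaks of the spread between libraries and may be technical.

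A read was counted as a 5′ fragment when it was 20 to 44 nt long and began with the first 18 bases of Rny1 or Rny3, with at most 1 substituted base over the whole read. By this rule 14363 of 103084122 reads were members, 11939 of Rny1 and 2424 of Rny3. They comprised 425 distinct sequences of Rny1 and 131 of Rny3. The RNA sequences themselves were read from the deposited reads, as described under the processing. They were extended until they had the lengths that RefSeq gives for the genes, 111 and 101 bases, so these lengths do not check them. The sequences are shown because every end position below is counted on them, from 1 at the 5′ end. Capitals mark the first 18 bases that the rule used. In Rny1, bases 44 to 52 rested on 2 reads and bases 43 and 53 to 55 on 3. In Rny3, bases 40 and 41 rested on 1 read, bases 66 to 69 on 2 and bases 42 to 54 on 3.
Rny1: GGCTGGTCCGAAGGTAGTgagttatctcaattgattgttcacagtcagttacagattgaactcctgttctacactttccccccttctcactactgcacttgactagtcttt
Rny3: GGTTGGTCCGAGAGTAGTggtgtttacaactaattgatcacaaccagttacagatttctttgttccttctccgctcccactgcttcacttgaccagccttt

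The first 18 bases of the pair were identical at 15 positions. The differences, with the base of Rny1 first, were C3T, A12G and G13A, so that 1 substitution cannot turn one start into the other. The 4 most abundant fragments of Rny1 and the 3 of Rny3 are shown next, because they show where reads that met the rule most often ended. With them is the 39-nt fragment of Rny3, because it ends apart from the others. Capitals mark the bases after the first 18. The 31-nt fragment of Rny1 had 2737 reads over the 8 libraries (22.9% of its fragments), the 30-nt one 1872, the 32-nt one 1471 and the 36-nt one 1102. The 24-nt fragment of Rny3 had 516 reads (21.3% of its fragments), the 21-nt one 318, the 22-nt one 260 and the 39-nt one 87. Between the last 2 stood its fragments of 20 nt (170 reads), 25 nt (161), 23 nt (121) and 27 nt (111), which are not shown.
Rny1, 30 nt: ggctggtccgaaggtagtGAGTTATCTCAA
Rny1, 31 nt: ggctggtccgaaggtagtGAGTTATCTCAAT
Rny1, 32 nt: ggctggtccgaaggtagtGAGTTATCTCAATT
Rny1, 36 nt: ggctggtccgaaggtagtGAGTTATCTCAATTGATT
Rny3, 21 nt: ggttggtccgagagtagtGGT
Rny3, 22 nt: ggttggtccgagagtagtGGTG
Rny3, 24 nt: ggttggtccgagagtagtGGTGTT
Rny3, 39 nt: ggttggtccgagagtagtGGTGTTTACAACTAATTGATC

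Most reads of both RNAs began at their first base. Such reads made up 65.9% to 84.7% of all reads of 20 to 44 nt placed on Rny1 in a library, and 77.5% to 82.7% of those placed on Rny3. Reads that began at bases 2 to 5 numbered 1010 for Rny1 and 210 for Rny3, and internal reads numbered 146 and 103. The other end of the RNA gave the remainder: 2006 reads of Rny1 and 291 of Rny3 ended within the last 8 bases. On Rny1 these 3′ fragments mostly began at adjacent bases, with 883 reads starting at base 83 and 739 at base 84; on Rny3 the most used start near the 3′ end was base 74, with 53 reads. The most abundant 3′ fragment of each is shown, since it is the partner strand of the stem; the Rny1 read, at bases 83 to 110, had 185 reads and the Rny3 read, at bases 74 to 97, had 8.
Rny1, 3′ end: cttctcactactgcacttgactagtctt
Rny3, 3′ end: ctcccactgcttcacttgaccagc

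In the minimum free energy fold of the whole RNA (RNAfold, -34.3 kcal/mol for Rny1 and -27.1 for Rny3), 17 of the first 21 bases of Rny1 paired with bases between 86 and 108, and 19 of the first 21 of Rny3 with bases between 77 and 98. This fold is a prediction without proteins.

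**Figure D1:**
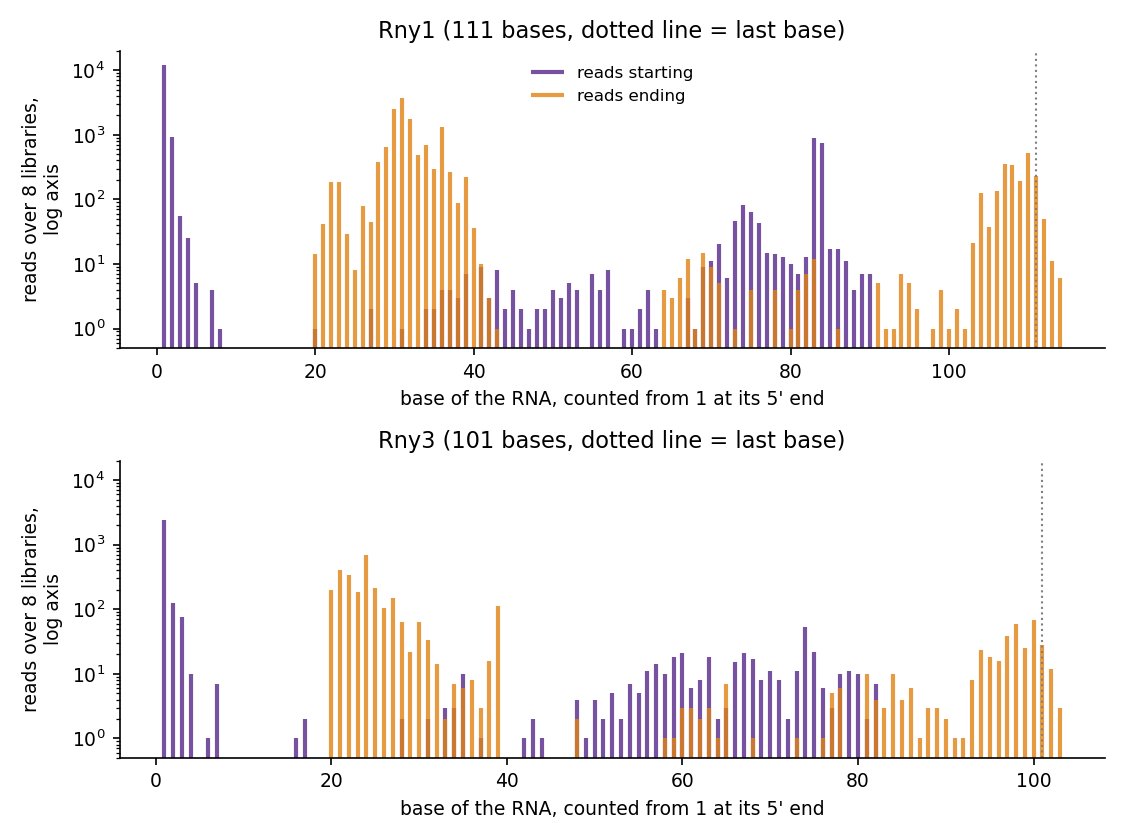
Number of reads that start (purple) or end (orange) at each base of Rny1 (top) and Rny3 (bottom), summed over the 8 sperm libraries, on a log axis; the dotted line marks the last base. Starts pile up at base 1, and on Rny1 also at bases 83 and 84, while ends of the 5′ fragments peak at base 31 on Rny1 and at base 24 on Rny3. Ends past the dotted line belong to reads with up to 3 added T.

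Before the levels, a split among the libraries has to be stated, since it runs with the diet. The libraries held 10165031 to 19030258 reads, and a count of 0 allowed up to 3 reads, or 0.158 to 0.295 CPM (counts per 1000000 reads of the library). The files hold no molecular identifiers, and the floors and Wilson intervals given here cover only counting error. The intervals of log2 fold changes come from the edgeR fit and also carry the spread between libraries. Among abundant sequences, reads carried G-to-T changes at base 29 at a rate of 394 to 501 per 10000 in both Dnmt2-/- ND libraries and Dnmt2+/+ ND replicate 1, which are called set A. C-to-G changes at base 26 occurred at 8.89 to 9.51 per 10000 in Dnmt2-/- HFD replicate 1 and both Dnmt2+/+ HFD libraries, set B. The remaining pair, Dnmt2-/- HFD replicate 2 and Dnmt2+/+ ND replicate 2, showed neither and is set C. All libraries of set A were therefore on ND and all of set B on HFD. The labels do not say what the sets are. Only set C holds both diets, with 1 library of each, and these also differ in genotype.

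Rny1 fragments were the more abundant of the pair in each library. Their level was 213.1 and 83.7 CPM in the Dnmt2-/- HFD libraries, against 65.8 and 40.5 CPM in the Dnmt2-/- ND libraries (replicates 1 and 2 in each case). It was 319.05 and 208.7 CPM in the Dnmt2+/+ HFD libraries, against 25.1 and 98.6 CPM in the Dnmt2+/+ ND libraries. The 3 libraries of set B stood highest, the 3 of set A lowest and the pair of set C between them. Diets overlapped, because the HFD library of set C lay below its ND library. In bulk samples such as these, fewer cells of a type and less RNA per cell cannot be told apart.

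Rny3 fragments had lower levels and were again highest in set B. They were at 73.2 and 12.3 CPM in Dnmt2-/- HFD sperm, against 14.6 and 5.86 CPM in Dnmt2-/- ND sperm. In Dnmt2+/+ sperm they were at 39.04 and 50.6 CPM on HFD, against 5.68 and 15.7 CPM on ND. The 3 libraries of set B stood above all others, and the HFD library of set C was below its ND library and also below Dnmt2-/- ND replicate 1. With reads of 18 and 19 nt added, that HFD library was at 21.5 CPM, against 21.4 and 19.04 CPM in these 2 ND libraries. The values of Rny3 rest on few reads, 77 to 754 in a library, against 478 to 3285 for Rny1.

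Rny1 made up 74.4% of the fragments of both RNAs in Dnmt2-/- HFD replicate 1 (95% Wilson interval 72.8% to 76%), the lowest share, and 89.1% in Dnmt2+/+ HFD replicate 1 (88% to 90.1%), the highest. Both of these are set B libraries, so the share varied as much within that set as over all 8. Group means lay close together, at 80.8% ± 9.05 in Dnmt2-/- HFD, 84.6% ± 3.88 in Dnmt2-/- ND, 84.8% ± 6.08 in Dnmt2+/+ HFD and 83.9% ± 3.33 in Dnmt2+/+ ND sperm (SD, n = 2 each).

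**Figure D2:**
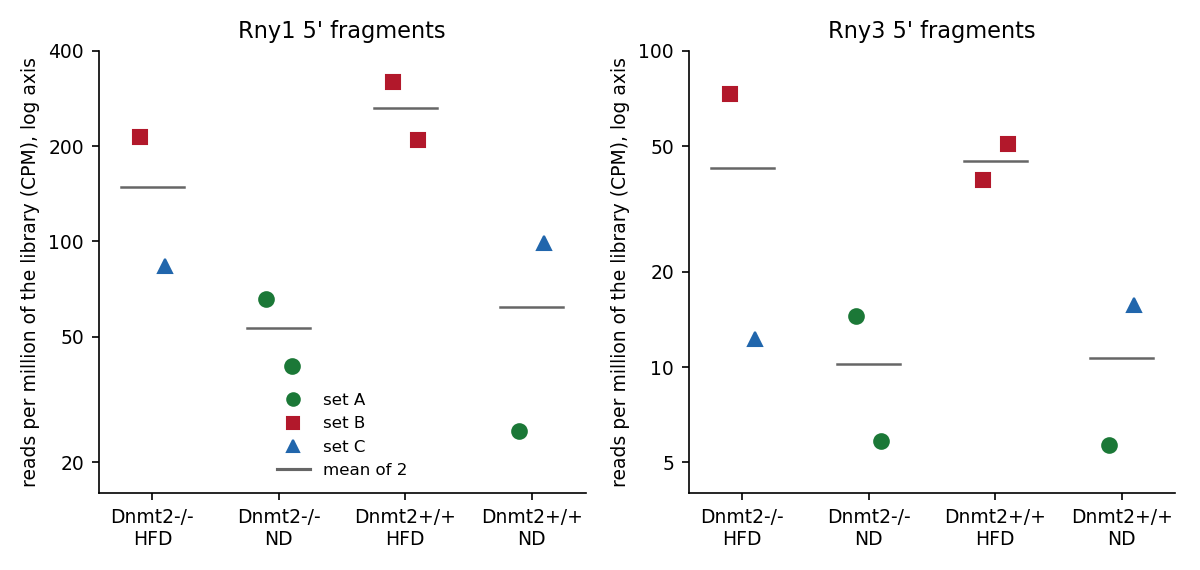
Level of Rny1 (left) and Rny3 (right) 5′ fragments in each sperm library, in CPM on a log axis, by genotype and diet; a marker is 1 library, its shape and colour give the set, and the line is the mean of the group's 2 libraries. Set B libraries lie between 208.7 and 319.05 CPM for Rny1 and between 39.04 and 73.2 CPM for Rny3, above all libraries of sets A and C.

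The 2 RNAs ended at different places. Rny1 fragments had a mean length of 30.4 to 32.4 nt in a library, and 51.5% to 74.4% of them were 30 to 32 nt long. Rny3 fragments had a mean length of 23.3 to 25.1 nt, and 38.6% to 52.8% of them were 20 to 23 nt long. The lengths of Rny3 are cut by the rule: 962 further reads of 18 or 19 nt began with its start, beside 196 members of 20 nt, and for Rny1 these numbers were 380 and 14. With reads of 18 and 19 nt added, the mean length of Rny3 was 21.7 to 23.6 nt. At the other limit of the rule, 1868 members of Rny1 had 1 substitution and 195 reads outside it had 2, while for Rny3 the numbers were 468 and 64.

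The 4 most used ends of Rny1 were bases 31, 32, 30 and 36, by mean share over the libraries. End 31 took 33.3% and 30.6% of the fragments in the Dnmt2-/- HFD libraries, against 19.7% and 24.1% in the Dnmt2-/- ND libraries. In Dnmt2+/+ sperm it took 27.2% and 29.3% on HFD, against 18.4% and 29.3% on ND. The 3 libraries of set A had the lowest shares, and all libraries of sets B and C had more than 27%.

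End 32 ran the other way. It took 10.4% and 11.5% in Dnmt2-/- HFD sperm, against 21.6% and 31.8% in Dnmt2-/- ND sperm, and 13.6% and 11.9% in Dnmt2+/+ HFD sperm, against 31.2% and 11.9% in Dnmt2+/+ ND sperm. The share was thus 21.6% or more in each library of set A and 13.6% or less in the other 5, ND included. In set A, end 32 was used more often than end 31 in all 3 libraries, and elsewhere end 31 was used more often. The part of the sets' other differences in this shift of 1 base was not tested.

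End 30 was highest in set C, at 30.8% in its HFD library and 24.2% in its ND library, against 7.95% to 18.6% in sets A and B. End 36 was lowest there, at 4.76% and 4.61% in the HFD and the ND library of set C, against 8.46% to 18.5% in the other 6. Both pairs show set C libraries of unlike diet and genotype next to each other. Fragments that ended at bases 33 to 35 made up 13.3% to 16% in set B, against 3.77% to 10.03% in sets A and C. Past base 36 reads were few, at most 8.16% of a library.

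Among its reads of 20 to 44 nt, Rny3 ended most often at base 24 on average. The shares were 29.6% and 20.9% in Dnmt2-/- HFD, 21.4% and 22.1% in Dnmt2-/- ND, 23.1% and 31.1% in Dnmt2+/+ HFD, and 27.8% and 19.2% in Dnmt2+/+ ND libraries. End 24 had 639 members over the libraries, beside 962 reads of 18 or 19 nt outside the rule. With those reads added its share was 11.9% to 22.3%, and ends 18 and 19 were not ranked. These groups overlapped. Bases 22, 21 and 25 were the next most used ends, with mean shares of 16.1%, 15.8% and 9.36%. End 22 took 19.8% to 26% in set A and 6.03% to 13% in set B, while the set C libraries had 21.5% on HFD and 10.3% on ND.

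A second, isolated end of Rny3 lay at base 39. It took 1.46% to 7.94% of the fragments in each of the 8 libraries, with at most 1.36% at base 38 and no member of 40 to 44 nt. This stop does not depend on the sequence used past that base: 92 reads of 39 nt began with the first 36 bases of Rny3, and no read of 40 to 44 nt did. For Rny1 the same count was 185 reads of 39 nt and 42 of 40 to 44 nt.

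**Figure D3:**
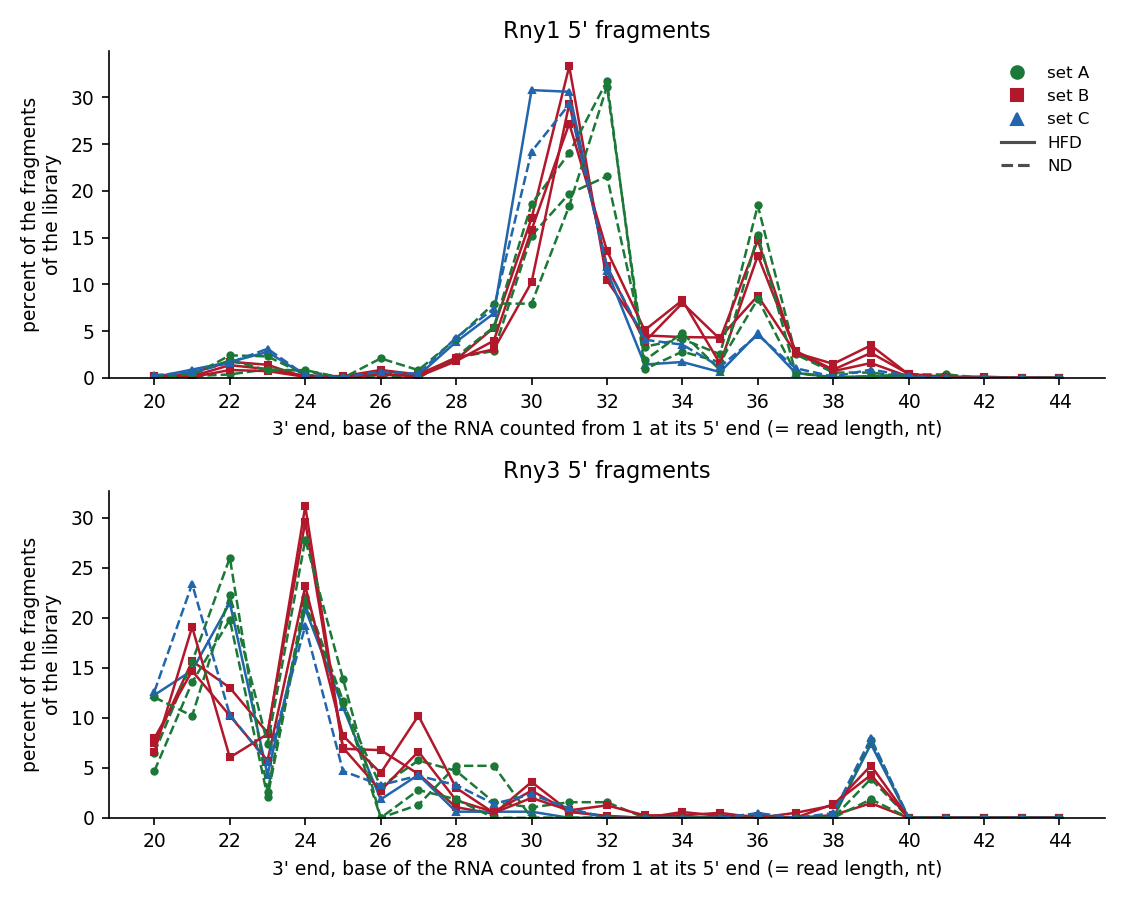
Share of the 5′ fragments of a library (percent) that end at each base of Rny1 (top) and Rny3 (bottom), with 1 line per library, coloured by set and solid for HFD or dashed for ND. Rny1 peaks at base 32 in the set A libraries and at base 30 or 31 in the others, with a second peak at base 36, and Rny3 has peaks at bases 21, 22 and 24 and a separate one at base 39.

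Among fragments with a substituted base, the last base was the substituted one in most reads of both RNAs in the 3 libraries of set B and in Dnmt2+/+ ND replicate 2. For Rny3 this also held in Dnmt2-/- HFD replicate 2 and Dnmt2+/+ ND replicate 1. The share of Rny1 fragments whose last base differed from the RNA was 9.7% and 3.5% in Dnmt2-/- HFD, against 4.61% and 3.2% in Dnmt2-/- ND, and 8.52% and 12.1% in Dnmt2+/+ HFD, against 2.3% and 6.39% in Dnmt2+/+ ND libraries. For Rny3 it was 17.9% and 4.91% in Dnmt2-/- HFD, against 5.21% and 1.3% in Dnmt2-/- ND, and 15.9% and 16.9% in Dnmt2+/+ HFD, against 6.48% and 8.88% in Dnmt2+/+ ND libraries. The 3 libraries of set B were the highest for both RNAs. T-to-C at the last base was found in 1.05% to 9.24% of the Rny1 fragments of a library and in 0% to 10.3% of those of Rny3. The most abundant changed fragments carried T31C in 319 reads of Rny1 and T24C and T21C in 75 and 49 reads of Rny3, positions counted from the 5′ end of the RNA. The fragments that carry them are shown, with the bases after the first 18 in capitals. The cause of these changes was not tested.
Rny1, T31C: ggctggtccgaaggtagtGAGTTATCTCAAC
Rny3, T24C: ggttggtccgagagtagtGGTGTC
Rny3, T21C: ggttggtccgagagtagtGGC

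Some longer reads that began as Rny3 went on with bases that match a stretch further down the same RNA. They were 65 of the 351 reads of 29 nt or more that began with its first 18 bases, or 18.5%, and occurred in all 8 libraries with 1 to 18 reads each. Such reads of Rny1 were 10 of 10844, or 0.0922%, in 4 libraries. These shares have unlike bases, since most Rny1 fragments but few Rny3 fragments reach 29 nt. Relative to all reads of the 8 libraries, joined reads were at 0.631 CPM for Rny3 and 0.097 CPM for Rny1. The most abundant ones of Rny3 are shown, with the second part in capitals. The first left the RNA at base 25 and went on at base 62, with 3 bases shared by both parts at the join, in 14 reads of 6 libraries. The second left at base 28 and went on at base 53, with 5 shared bases, in 11 reads of 6 libraries. The second parts are short: 4 bases past the first part were enough, if 7 matched with the shared ones. How often so short a match arises by chance, and how these reads arose, was not tested. They are not members.
Rny3, 25 to 62: ggttggtccgagagtagtggtgtttGTTC
Rny3, 28 to 53: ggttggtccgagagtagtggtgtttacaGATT

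The 3′ fragments of Rny1 had levels in the same order of sets as its 5′ fragments. They were at 37.4 and 13.5 CPM in Dnmt2-/- HFD, against 9.41 and 3.88 CPM in Dnmt2-/- ND libraries, and at 42.5 and 45.7 CPM in Dnmt2+/+ HFD, against 6.25 and 17.9 CPM in Dnmt2+/+ ND libraries. Set B was highest and the HFD library of set C lay below its ND library, as for the 5′ fragments. Those of Rny3 were at 0.893 to 6.39 CPM. The 3′ fragments made up 7.66% to 17.4% of the reads of Rny1 and 4.82% to 17.03% of those of Rny3.

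The comparison of HFD with ND asks whether diet changes the fragments. It was fitted with edgeR's quasi-likelihood test over 29345 families of reads that share their first 18 bases, with Rny1 and Rny3 as a family each and Benjamini-Hochberg adjustment over all families. In Dnmt2-/- sperm, Rny1 averaged 148.4 ± 91.5 CPM on HFD and 53.1 ± 17.9 CPM on ND (SD, n = 2 each), a log2 fold change of 1.48 ± 0.77 (SE; adjusted p = 0.865, edgeR). Rny3 averaged 42.7 ± 43.1 CPM on HFD and 10.2 ± 6.16 CPM on ND, a log2 fold change of 2.06 ± 0.94 (SE; adjusted p = 0.865, edgeR). In Dnmt2+/+ sperm, Rny1 averaged 263.9 ± 78.1 CPM on HFD and 61.9 ± 52 CPM on ND (SD, n = 2 each), a log2 fold change of 2.09 ± 0.78 (SE; adjusted p = 0.379, edgeR). Rny3 averaged 44.8 ± 8.15 CPM on HFD and 10.7 ± 7.07 CPM on ND, a log2 fold change of 2.07 ± 0.94 (SE; adjusted p = 0.506, edgeR). Neither RNA passed an adjusted p of 0.05 in either genotype. Single libraries carried much of these values: without Dnmt2-/- HFD replicate 1 the log2 fold changes in Dnmt2-/- sperm were 0.66 for Rny1 and 0.26 for Rny3. In Dnmt2+/+ sperm they were 3.39 and 2.98 without ND replicate 2, and 1.42 and 1.51 without ND replicate 1.

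Over all families, 0% passed in Dnmt2-/- sperm and 0.017% (5 families, all higher on HFD) in Dnmt2+/+ sperm. At an unadjusted p under 0.05, Rny3 alone of the pair was counted in Dnmt2-/- sperm, where 5.6% of all families were (1642 of 29345), and both RNAs in Dnmt2+/+ sperm, where 9.67% were (2837 of 29345). The median log2 fold change of all families was 0.44 in Dnmt2-/- and 0.33 in Dnmt2+/+ sperm, below both RNAs; TMM moved it to 0.0238 and -0.12 and left both RNAs above it, at 1.02 to 1.76. DESeq2 called 71 families in Dnmt2-/- and 829 in Dnmt2+/+ sperm and neither RNA in either genotype. The counts of families depended on single libraries: without Dnmt2-/- HFD replicate 1, 5 and 767 passed in edgeR, without Dnmt2-/- HFD replicate 2, 454 and 1220, and without Dnmt2+/+ ND replicate 2, 4 and 5, in Dnmt2-/- and in Dnmt2+/+ sperm. Without any 1 of the other 5 libraries, 0 passed in Dnmt2-/- and 0 or 1 in Dnmt2+/+ sperm. With the set as a term in the fit, the log2 fold changes were -1.32 for Rny1 and -1.20 for Rny3 in Dnmt2-/- sperm and 0.07 and -1.06 in Dnmt2+/+ sperm, with adjusted p of at least 0.9999 in edgeR. Only set C holds both diets, so each of these values combines the difference of its pair of libraries with a genotype difference within another set. For Dnmt2-/- sperm that is set A, where the fit gave Dnmt2-/- minus Dnmt2+/+ as 1.08 for Rny1 and 0.85 for Rny3, and for Dnmt2+/+ sperm it is set B, with -0.31 and 0.71. In each of these sets 1 genotype has a single library.

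Over both genotypes, Rny1 was at 206.1 ± 96.2 CPM on HFD and 57.5 ± 32.1 CPM on ND (two-sided exact permutation p = 0.0571, adjusted p = 0.4 over 14 tests; n = 4 each, ± SD). It was higher than each ND library in 3 of 4 HFD libraries. Rny3 was at 43.8 ± 25.3 CPM on HFD and 10.4 ± 5.42 CPM on ND (exact permutation p = 0.0857, adjusted p = 0.4; n = 4 each, ± SD). Within set C, the HFD library minus the ND library was -14.9 CPM for Rny1 and -3.43 CPM for Rny3, opposite in sign to the pooled differences of 148.6 and 33.3 CPM. For Rny3 this sign depended on the lower length limit of the rule. With reads of 18 and 19 nt added, Rny3 was at 21.5 CPM in the HFD and 21.4 CPM in the ND library of set C. Each HFD library then lay above each ND library (exact permutation p = 0.0286, adjusted p = 0.267 over 14 tests). The smallest p that 4 libraries against 4 can give is 0.0286.

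Of the shape of the fragments, the share of Rny1 at end 31 was 30.1% ± 2.56 on HFD and 22.9% ± 4.91 on ND (exact permutation p = 0.0571, adjusted p = 0.4; n = 4 each, ± SD). In set C the HFD library exceeded the ND library by 1.34 percentage points, against 7.25 in the pooled comparison. The share of Rny3 at end 24 was 26.2% ± 4.95 on HFD and 22.6% ± 3.67 on ND (exact permutation p = 0.229, adjusted p = 0.8). Mean lengths of Rny1 were 31.7 ± 0.886 nt on HFD and 31.4 ± 0.523 nt on ND, and of Rny3 24.4 ± 0.513 nt and 24.2 ± 0.771 nt on HFD and ND (SD, n = 4 each). Rny1 as a share of both was 82.8% ± 6.7 on HFD and 84.3% ± 2.98 on ND. The exact permutation p of these last 3 measures was 0.571, 0.714 and 0.743, with an adjusted p of 0.914 for each. Differences of this size were within the spread between libraries.

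Setting Dnmt2-/- against Dnmt2+/+ sperm asks whether the methyltransferase changes the fragments. On HFD, the log2 fold change of Rny1 was -0.83 ± 0.75 (SE; adjusted p = 0.984, edgeR) and that of Rny3 was -0.07 ± 0.904 (SE; adjusted p = 0.998, edgeR), with 95% intervals of -2.46 to 0.80 and -2.02 to 1.89. On ND, the log2 fold change of Rny1 was -0.22 ± 0.75 and that of Rny3 -0.06 ± 0.91 (SE; adjusted p = 1 for each, edgeR), with 95% intervals of -1.84 to 1.40 and -2.03 to 1.90. Intervals this wide include changes of several-fold in either direction on ND. Over all families, 0% passed on HFD and 0% on ND. At an unadjusted p under 0.05, neither RNA was counted, where 6.75% of all families were on HFD and 2.52% on ND. The median log2 fold change of all families was -0.35 on HFD and -0.29 on ND. DESeq2 called 483 families on HFD and 5 on ND and neither RNA. In edgeR, 994 and 0 passed on HFD and on ND without Dnmt2-/- HFD replicate 1, 2 and 41 without replicate 2 of that group, and 0 and 0 without any 1 of the other 6 libraries. Scaled by TMM, which moved the median of all families to 0.0803 on HFD and 0.0174 on ND, the values were -0.30 for Rny1 and 0.43 for Rny3 on HFD and 0.44 and 0.61 on ND, so the sign of 3 of the 4 depended on the scaling. Single libraries moved them as well: on HFD they were -1.66 for Rny1 and -1.87 for Rny3 without Dnmt2-/- HFD replicate 1, and -0.31 and 0.71 without its replicate 2. On ND they were 1.08 and 0.85 without Dnmt2+/+ ND replicate 2.

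Over both diets, Rny1 averaged 100.8 CPM in Dnmt2-/- (SD 77) and 162.9 CPM in Dnmt2+/+ sperm (SD 128.6; n = 4 each), with an exact permutation p of 0.486 and an adjusted p of 0.914. The difference ran from -108 CPM without Dnmt2+/+ ND replicate 1 to -10.04 CPM without Dnmt2+/+ HFD replicate 1. Rny3 was at 26.5 ± 31.4 CPM in Dnmt2-/- and 27.7 ± 20.7 CPM in Dnmt2+/+ sperm (exact permutation p = 0.886, adjusted p = 0.914). Within sets the difference in Rny1 went both ways, at 28 CPM in set A, on ND, and -50.8 CPM in set B, on HFD. Rny3 was higher in Dnmt2-/- sperm in both sets, by 4.54 CPM in set A and 28.4 CPM in set B, where 1 genotype has a single library in each set and no test was made. The other 5 measures had exact permutation p between 0.514 and 0.914 and overlapped between the genotypes.

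The interaction of diet and genotype, whether the diet difference itself differs between genotypes, was -0.61 ± 1.06 for Rny1 and -0.0069 ± 1.29 for Rny3 (log2, SE; adjusted p = 0.9999 for each, edgeR), with 95% intervals of -2.90 to 1.68 and -2.80 to 2.78. Over all families 0% passed and 6.49% had an unadjusted p under 0.05, neither RNA among them; DESeq2 called 39 families and neither RNA. In edgeR, leaving out Dnmt2-/- HFD replicate 1 gave 779 families, and leaving out its replicate 2 gave 2.

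**Figure D4:**
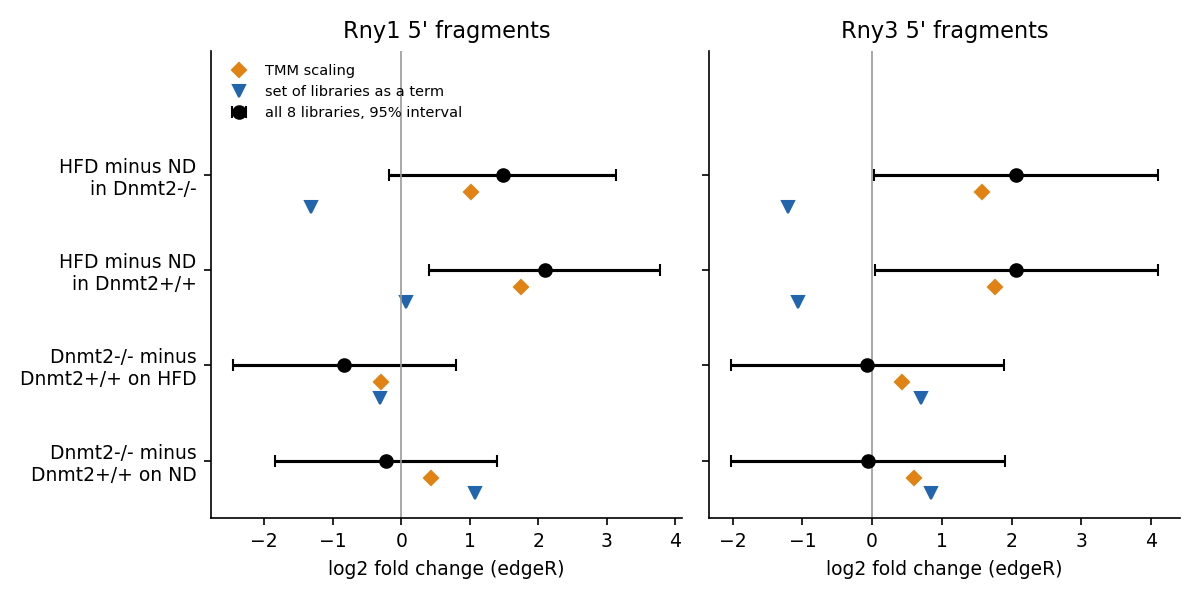
Log2 fold changes of Rny1 (left) and Rny3 (right) 5′ fragments in the 4 comparisons between groups (edgeR). Black points use the total of reads as library size, with bars for the 95% interval; orange diamonds are scaled by TMM and blue triangles have the set of libraries as a term. Diet differences of 1.48 to 2.09 turn to values between -1.32 and 0.07 with the set as a term, and the genotype intervals all include 0.

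Over the 8 libraries, Rny1 and Rny3 varied together, with a Pearson r of 0.93 on log2 CPM. As a description, the named families whose levels were most like Rny1 among 265 families of at least 100 CPM on average were let-7g-5p (r = 0.961), miR-26b-5p (r = 0.959) and miR-200c-3p (r = 0.952), with 2 unnamed families at 0.983 and 0.954. Among the 5 most like Rny3, let-7g-5p was the only named one (r = 0.943). The libraries fall into sets with distinct levels, and any family that follows the sets would show a high r. The limit of 100 CPM is a mean over the 8 libraries, so a family can pass it through set B alone. For example, miR-26b-5p was at 179.9 to 251.8 CPM in set B, 9.25 to 17.2 CPM in set A and 57.5 and 104.7 CPM in set C. let-7g-5p, from the let-7 microRNAs that are widespread in somatic tissue, was at 2673 and 516.2 CPM in Dnmt2-/- HFD, against 174.5 and 104.3 CPM in Dnmt2-/- ND libraries, and at 3256 and 2770 CPM in Dnmt2+/+ HFD, against 118.6 and 403.1 CPM in Dnmt2+/+ ND libraries. Unlike the Y RNA fragments, it was higher in the HFD library of set C than in the ND library.

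Markers of other cell types were read in the same libraries, as microRNAs that begin with the first 18 bases of the RefSeq arm. Only the listed arm of each was read, and the opposite arm was not counted. Germ cell and sperm microRNAs, 5 of 5 detected and led by miR-881-3p, summed to 371 to 806.8 CPM on HFD and 355.8 to 1449 CPM on ND, and by set to 355.8 to 1449 CPM in A, 371.2 to 704.04 CPM in B and 806.8 to 814.1 CPM in C. Most of this sum was miR-881-3p, with miR-34b and miR-34c read only as miR-34b-3p and miR-34c-3p. Another member, miR-191-5p, was at 23.4 to 28.4 CPM in set A and 83.1 to 90.5 CPM in set B, and at 41.3 CPM in the HFD and 160.6 CPM in the ND library of set C. The level of miR-449a-5p was 0.076 CPM or less in set A, with 0 in Dnmt2+/+ ND replicate 1, and 2.62 to 3.64 CPM in set B; in set C it was 0.376 CPM in the HFD and 4.76 CPM in the ND library. The miR-200 family microRNAs of epithelium, 5 of 5 detected, summed to 614 to 4049 CPM on HFD and 192.1 to 1936 CPM on ND, and by set to 192.1 to 417.6 CPM in A, 3084 to 4049 CPM in B and 614 to 1936 CPM in C. Of the muscle list 2 of 5 had a sequence to match; set B had 65.2 to 76.8 CPM of miR-206-3p and all other libraries 0.676 CPM or less, and miR-1a-1-5p was at 0 in all 8 libraries. The opposite arm of miR-1a was not read, so this 0 does not speak of it. Blood microRNAs, 5 of 6 matched, summed to 3.69 to 5.83 CPM on HFD and 0.531 to 3.96 CPM on ND. By set the sum was 0.531 to 1.16 CPM in A, 3.69 to 5.83 CPM in B and 3.96 to 4.66 CPM in C. It includes miR-144-5p, miR-223-5p and miR-150-3p, whose opposite arms were not read. For liver, 1 of 2 was matched, miR-192-5p, at 6.02 to 10.9 CPM on HFD and 15.7 to 26.4 CPM on ND. By set it was at 15.7 to 26.4 CPM in A, 6.02 to 10.3 CPM in B and 10.9 to 17.7 CPM in C. The epithelial list, miR-191-5p, miR-449a-5p, the blood sum and miR-206-3p were higher in set B than in set A, as both Y RNA fragments were. In set C the epithelial list, miR-191-5p and miR-449a-5p were lower in the HFD than in the ND library, again as the members of both RNAs were. The blood sum and miR-206-3p went the other way there. The blood sum was 4.66 CPM in the HFD and 3.96 CPM in the ND library of set C. For miR-206-3p the values were 0.676 and 0.147 CPM, which rest on few reads. The other germ cell members overlapped between sets A and B. For miR-881-3p the values were 316.6 to 1403 CPM in set A and 271.2 to 591.6 CPM in set B. For miR-34b-3p they were 6.98 to 18.8 and 9.51 to 13 CPM, and for miR-34c-3p 3.79 to 6.08 and 4.75 to 8.56 CPM. In set C, miR-881-3p was higher and the miR-34 members were lower in the HFD library. The part of these microRNAs in the levels of the fragments was not tested.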

How the data were processed

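The deposited sperm files hold counts: each lists distinct read sequences of 18 to 44 nt with their length and number of reads, with no header. How adapters were trimmed was not given in the sources used here. Per the labels' protocols, Trizol was used for extraction and the TruSeq small RNA kit for the libraries. The submitters' processing notes name the builds mm10 and GRCm38. The 8 files of transfected 3T3 cells were not used.

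No sequence of Rny1 or Rny3 was at hand. Each was read from the deposited reads themselves: the most abundant 18-base start that opens with a conserved Y RNA start of 9 bases, with C (Rny1) or T (Rny3) at the third base, was extended by the most frequent base of the reads, then by reads that overlap by 14 to 22 bases. The RNAs' coordinates and lengths are those of RefSeq (GRCm38), and the extension was stopped at those lengths. CPM is per all reads of a library. Reads elsewhere on the RNAs were placed without gaps, with at most 1 substitution and up to 3 added T. Y RNA pairing was predicted with RNAfold 2.7.2.

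For tests, reads of 20 to 44 nt that share their first 18 bases formed a family, and the members of Rny1 and Rny3 were taken out as 2 families of their own. Of 98124 families with at least 10 reads, filterByExpr kept 29345. They were tested with edgeR 4.0.16 in R 4.3.3 (quasi-likelihood; all 4 groups in one fit; library size is the total of reads), and an adjusted p under 0.05 was called. Another 7 measures were tested between 4 libraries and 4 by exact permutation, two-sided (SciPy 1.17.1), adjusted over 14 tests. The alternatives were TMM, DESeq2 1.42.0, no filter, other match rules, another length range and denominator, leaving out each library, a replicate block and the set as a term. The edgeR fit was tested on simulated counts, with 200 families changed 4-fold between diets, a fixed spread and no sets. That test does not give the power or error rate of the fit on these data. Replicates differed beyond counting noise in all 4 groups (chi-square of 18.8 to 215.4 per family), so each library was counted once.

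The members, lists and tests were chosen with earlier results of these data known. The text names Rny1 and Rny3 in every library, their 4 most used ends, their most abundant sequence and the 5 families most like each; further sequences were chosen after their values were seen. The 17 other small noncoding RNA genes listed for comparison had no start sequence at hand and were not analysed here. Figures were drawn with matplotlib 3.10.9.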

Additional observations from a re-analysis of the deposited data

Results flagged for a closer look

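Among the 4 Dnmt2-/- libraries, HFD replicate 1 stood apart in 2 measures of Rny3, by the gap to its neighbour relative to the range of the 4. Its level was 73.2 CPM, against 5.86 to 14.6 CPM in the other 3. Its share of fragments at end 24 was 29.6%, against 20.9% to 22.1% in the other 3. It is the only Dnmt2-/- library of set B, and the 2 Dnmt2+/+ libraries of that set had 39.04 and 50.6 CPM and shares of 23.1% and 31.1%. Chance flags about 1 in 20 groups, and 28 groups of 4 were looked at.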

How the results depend on the processing

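No setting brought Rny1 or Rny3 past an adjusted p of 0.05 in any edgeR or DESeq2 comparison. The lowest adjusted p for diet over all settings was 0.331 for Rny1 and 0.153 for Rny3 in Dnmt2-/- sperm, and 0.117 and 0.233 in Dnmt2+/+ sperm. The 14 permutation tests say nothing of stability: with 4 libraries against 3 the smallest p they can give is 0.0571, and with 4 against 4 it is 0.0286 before adjustment. Signs were less stable, and the cause was not tested. TMM turned the log2 genotype differences to 0.44 (Rny1) and 0.61 (Rny3) on ND and 0.43 (Rny3) on HFD, and DESeq2 to 0.42, 0.59 and 0.43. With the set as a term, diet differences turned to -1.06 for Rny3 in Dnmt2+/+ and -1.32 and -1.20 for Rny1 and Rny3 in Dnmt2-/- sperm, and genotype differences to 1.08 and 0.85 on ND and 0.71 for Rny3 on HFD. The interaction of Rny3 turned to 0.0205 without substitutions and to 0.015 with the first 18 bases exact.

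Counts of called families moved most. For diet in Dnmt2+/+, diet in Dnmt2-/-, genotype on ND, genotype on HFD and the interaction, DESeq2 called 829, 71, 5, 483 and 39 families, and without the filter on low counts edgeR called 812, 190, 21, 638 and 628, against 5, 0, 0, 0 and 0. TMM and the set as a term each called 0 for diet in Dnmt2+/+, and the set term 2 for genotype on HFD. Leaving out 1 library gave 0 to 1220, 0 to 454, 0 to 41, 0 to 994 and 0 to 779 families. The highest counts came without Dnmt2-/- HFD replicate 2 in the first 3 comparisons, and without Dnmt2-/- HFD replicate 1 in the last 2. With the replicate block 2 families passed for diet in Dnmt2-/- sperm and the other 4 counts kept their value; the block brought neither RNA past the threshold. The labels do not say that a number marks a pair, and same-numbered libraries did not deviate together (r of -0.31 to 0.15 between groups).

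Leaving out 1 library kept the diet differences of both RNAs positive in both genotypes: 1.42 to 3.39 for Rny1 and 1.51 to 2.98 for Rny3 in Dnmt2+/+, lowest without ND replicate 1 and highest without ND replicate 2, and 0.66 to 2.004 and 0.26 to 2.86 in Dnmt2-/- sperm, lowest without HFD replicate 1. Genotype differences ran from -0.89 to 1.08 (Rny1) and -0.86 to 0.85 (Rny3) on ND and from -1.66 to -0.31 (Rny1) and -1.87 to 0.71 (Rny3) on HFD, and interactions from -1.91 to 0.0622 and -1.81 to 0.79. In the measures over both genotypes, diet differences ran from -3.55 to 1.34 points for Rny1 as a share of both and from -0.14 to 0.46 nt for the length of Rny3. Genotype differences ran from -108 to -10.04 CPM for Rny1, -16.8 to 6.33 CPM for Rny3, -3.18 to 1.13 points for the share of Rny1, -0.44 to 0.13 nt for the length of Rny3, -1.67 to 3.28 points at end 31 and -3.88 to 0.11 points at end 24.

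Within set C, HFD minus ND was -14.9 CPM (Rny1), -3.43 CPM (Rny3), 0.954 points (share of Rny1), -0.245 nt and -0.423 nt (lengths of Rny1 and Rny3). Dnmt2-/- minus Dnmt2+/+ within set A was 28 CPM, 4.54 CPM, 3.04 points, 0.208 nt and 1.24 nt for the same measures, and within set B 28.4 CPM for Rny3 and 2.44 points at end 24. With 18 to 44 nt the diet difference in the length of Rny3 was -0.0745 nt, and without substitutions the genotype difference at end 24 was 0.0559 points. Within set C, 18 to 44 nt put Rny3 at 21.5 CPM on HFD and 21.4 CPM on ND. The remaining settings other than leaving out a library kept the sign of each measure. Depth limits Rny3 most, with 77 reads in the smallest library.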
